A study of Rattus norvegicus with 86 samples.

Results

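*Ifit1* (interferon-induced protein with tetratricopeptide repeats 1, ENSRNOG00000019050) was 1 of 17250 genes measured by RNA-Seq in the prelimbic cortex (PL) of 80 Heterogeneous Stock (HS) rats. The gene was chosen by its own log2 values in these rats, which fell at separate levels, so its levels are described here without a test of that separation. HS rats are an outbred population descended from inbred founder strains. The rats, 40 male and 40 female, were group housed, had received no behavioral or drug treatment, and were spread over 5 rat batches of the labels, numbered 2 to 6 and holding 14, 23, 26, 1 and 16 rats. Each library came from a separate rat, and 6 further samples that the labels mark as removed were left out. What a rat batch stands for is not given in the sources used here.

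IFIT proteins are part of the cell's antiviral response. Interferons released on infection bind receptors that signal through JAK kinases and STAT proteins, and a resulting complex that holds STAT2 and IRF9 binds the interferon-stimulated response element in promoters of the *Ifit* genes. IFIT1 binds viral RNA that lacks the methylation of host mRNA caps and blocks its translation. In the brain, interferon-stimulated genes are kept at a low level without infection and can be induced in neurons, glia and vascular cells.

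In the order of the rat annotation, *Ifit1* lies on chromosome 1 in a cluster with its paralogs *Ifit1bl*, *Ifit2* and *Ifit3*, and next to *Lipa*, the gene of lysosomal acid lipase, which hydrolyses cholesteryl esters and triglycerides in the lysosome. *Ifit1bl* lay 2 genes, *Ifit2* 4 genes and *Lipa* 5 genes before *Ifit1*. These neighbours carry the main comparison below, so their promoters were searched on both strands for GAAA, 2 bases of any kind and GAAA again (TTTC, 2 bases and TTTC on the other strand), the core of the interferon-stimulated response element. RefSeq windows of 250 bases before to 50 bases after each gene start, on build GRCr8, were found for 3 of the 5 genes looked up, with none for *Ifit1* and *Ifit2*. Upstream parts of 250 bases, 5′ to 3′ along the gene's strand, are shown for the *Ifit1* paralog and for *Lipa*, with the motif match in capitals.
Ifit1bl, chr1:241543556-241543805, minus strand: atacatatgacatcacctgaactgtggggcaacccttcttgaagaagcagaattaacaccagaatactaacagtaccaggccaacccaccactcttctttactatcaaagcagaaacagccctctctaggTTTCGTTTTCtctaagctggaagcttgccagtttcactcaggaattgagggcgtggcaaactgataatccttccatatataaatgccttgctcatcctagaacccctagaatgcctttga
Lipa, chr1:241470741-241470990, minus strand: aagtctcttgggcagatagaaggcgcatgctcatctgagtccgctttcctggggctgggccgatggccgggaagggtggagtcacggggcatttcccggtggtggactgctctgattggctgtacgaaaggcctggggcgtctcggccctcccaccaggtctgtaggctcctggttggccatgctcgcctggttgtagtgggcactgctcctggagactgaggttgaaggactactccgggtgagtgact
The match in the *Ifit1bl* window began 120 bases before the gene start, and a second *Ifit1bl* window, for another start, held none. *Ifit3* held 1 match, TTTCAGTTTC, 44 bases before its start, and the *Lipa* window held none. Of all 33469 windows searched, 1312 (3.92%) held the motif, so such a match is not particular to these genes. Its absence says only that these letters are not in the window.

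The values are log2 of read counts adjusted to a common upper quartile, plus 1. *Ifit1* was listed at 0 adjusted counts in 35 rats and at 1 in 4 rats, while the remaining 41 rats held 12 to 91 counts, with a median of 39. No rat lay between 1.00 and 3.70 on the log2 scale, a gap of 2.70, and the next widest gap between neighbouring rats was 1.00. The upper 41 rats held 99.8% of the 1613 adjusted counts of *Ifit1*. A count of 0 allows up to 3 reads, which lies below the lowest of the upper rats, but the libraries had been scaled, so this limit is approximate and covers counting error only.

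Within the upper rats *Ifit1* still varied. The mean was 39.2 ± 15.6 adjusted counts (SD, n = 41), the middle of the distribution ran from 26 to 47 counts (quartiles), and the variance was 6.20 times the mean, above the value of 1 for counting error alone. On the log2 scale the upper rats held 5.22 ± 0.59 (SD, n = 41). Across all 80 rats the SD of *Ifit1* was 2.62, against a median SD of 0.26 over all genes. A gap at least as wide, with at least 8 rats on each side, was found in 63 other genes, and the median over all genes was 0.056. No other gene had values identical to those of *Ifit1*.

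**Figure D1:**
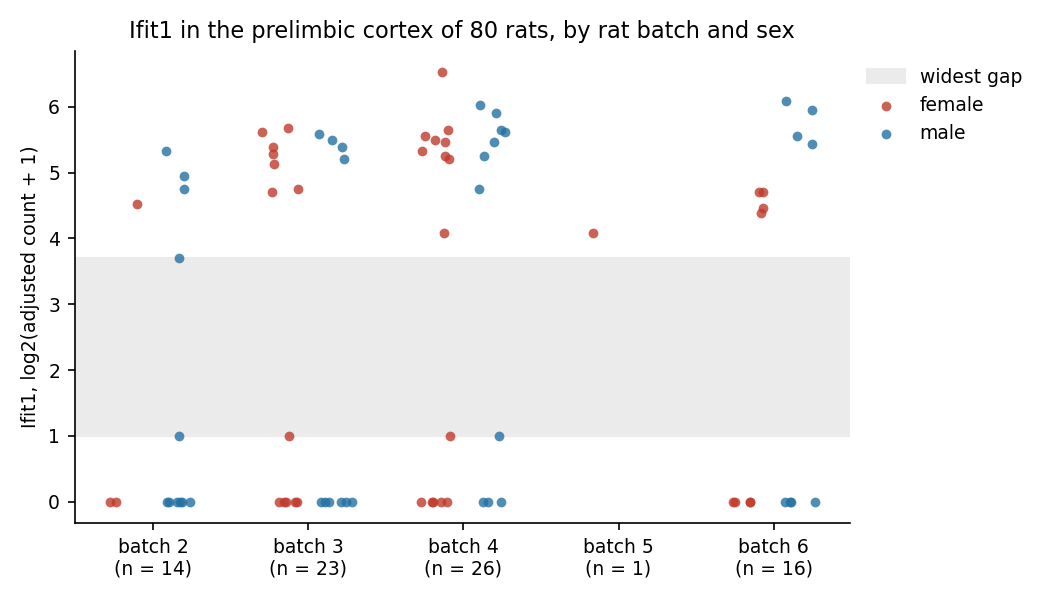
*Ifit1* as log2(adjusted count + 1) in each of 80 rats, by rat batch on the horizontal axis and by sex in colour, with points spread sideways for visibility. The shaded band is the gap between 1.00 and 3.70, and rats stand above and below it in batches 2, 3, 4 and 6, while batch 5 holds 1 rat.

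Both levels occurred in both sexes and in every batch with more than 1 rat. The upper level was held by 22 of 40 females (16 to 91 counts, median 36.5) and by 19 of 40 males (12 to 67 counts, median 43). By batch it was held by 5 of 14 rats in batch 2 (12 to 39 counts, median 26), 11 of 23 in batch 3 (25 to 50, median 41), 16 of 26 in batch 4 (16 to 91, median 43.5) and 8 of 16 in batch 6 (20 to 67, median 33.5). The rat of batch 5 held 16 counts. In batch 6, the 4 upper females held 20 to 25 counts and the 4 upper males 42 to 67, with no overlap. The ranges of the sexes overlapped in batches 3 and 4. Batch 2 had 1 upper female, at 22 counts, between the 12 and 39 of its 4 upper males. This split within batch 6 was seen after the values were known and was not tested.

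A difference of *Ifit1* between the sexes was not detected. In the limma fit with batch as a factor, males differed from females by 0.05 log2 units (SE 0.59, Benjamini-Hochberg adjusted p = 0.996), while 63 of 17250 genes (0.365%) passed an adjusted p of 0.05. The unadjusted means, 2.60 in males and 2.85 in females, lay in the opposite order. Within batches, the male minus female difference was 0.29 (SE 1.66) in batch 2, -0.72 (SE 1.15) in batch 3, 0.30 (SE 1.07) in batch 4 and 0.60 (SE 1.39) in batch 6, and the interaction of sex and batch gave F = 0.254 (limma, adjusted p = 1.00). With rats at 2 levels so far apart, these errors leave room for a difference of over 1 log2 unit in either direction.

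*Ifit1* did not pass the test for batch either. The moderated F of limma was 1.09 (Benjamini-Hochberg adjusted p = 0.437), although 10249 of 17250 genes (59.4%) differed between batches at an adjusted p under 0.05. Of the neighbouring genes, *Ifit1bl* passed this test (adjusted p = 0.0441 in limma), and *Lipa* (adjusted p = 0.842) and *Ifit2* (adjusted p = 0.868) did not. *Ifit2* was 0.27 log2 units higher in males (SE 0.08), which did not pass in limma (adjusted p = 0.158).

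To find genes that follow *Ifit1* across rats, each of the 17249 other genes was fitted on the log2 value of *Ifit1*, with batch and sex in the model. The slope is the change in log2 units of a gene per log2 unit of *Ifit1*, and *Ifit1* itself spanned 6.52 units. *Lipa* (ENSRNOG00000019077) was the 1 gene that passed an adjusted p of 0.05 (0.00580% of genes tested), and no gene passed with a positive slope. At an unadjusted p under 0.05 there were 486 genes, or 2.82%, of which 250 had a positive and 236 a negative slope. In bulk tissue, fewer cells of a type and less RNA per cell cannot be told apart, for *Ifit1* or for *Lipa*.

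*Lipa* was well expressed in every rat, from 715 to 1266 adjusted counts with a median of 1067, or 10.03 ± 0.16 on the log2 scale (SD, n = 80). It was lower in rats with more *Ifit1*. The slope was -0.041 (SE 0.0056, adjusted p = 2.65e-06 in limma). Over the full range of *Ifit1*, up to the highest rat at 91 counts, this came to a fall by 0.27 log2 units (95% interval 0.20 to 0.34). The lower and upper levels of *Ifit1* had means of 0.10 and 5.22, with no rat between 1.00 and 3.70. The slope thus mainly sets 2 levels against each other. A permutation of *Ifit1* within batches and sexes gave a two-sided p of 1e-05, the smallest that 100000 permutations can give. This p was not adjusted over genes. *Lipa* had the smallest p of all genes in the same rats, so the permutation adds no test of the call over all genes.

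*Lipa* had a slope on *Ifit1* below 0 in each batch of more than 1 rat. Its slope was -0.027 in batch 2 (SE 0.015, unadjusted limma p = 0.0843), -0.051 in batch 3 (SE 0.011, unadjusted limma p = 5.85e-05), -0.044 in batch 4 (SE 0.0091, unadjusted limma p = 5.38e-05) and -0.030 in batch 6 (SE 0.013, unadjusted limma p = 0.0344). None of these passed adjustment over all genes within the batch. The slopes did not differ detectably between batches (interaction F = 0.832, unadjusted limma p = 0.481). The rats are those of the fit that called *Lipa*, so the slopes within batches are not independent of that call. Because the rats stand at separate levels, the slope was also fitted within each level. It was -0.11 among the 41 upper rats (SE 0.048, unadjusted limma p = 0.0311) and -0.038 among the 39 lower rats (SE 0.060, unadjusted limma p = 0.53), and neither passed adjustment over all genes (adjusted p = 0.737 and 1.00).

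**Figure D2:**
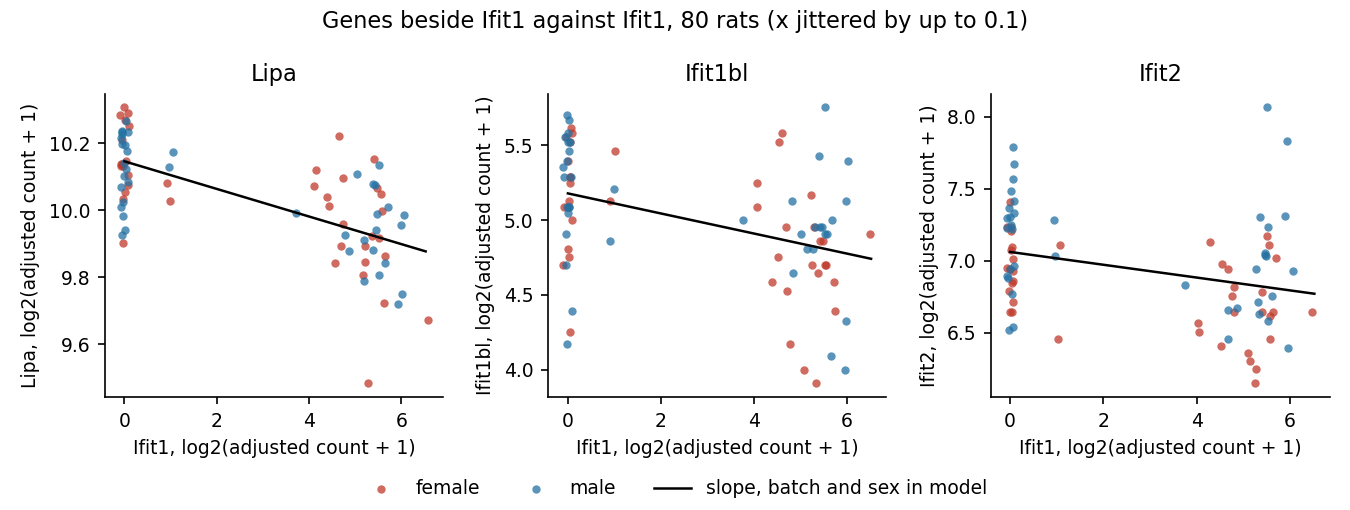
*Lipa*, *Ifit1bl* and *Ifit2* against *Ifit1*, all as log2(adjusted count + 1), in 80 rats coloured by sex, with *Ifit1* spread sideways by up to 0.1. Lines have the slopes of the model with batch and sex, -0.041, -0.067 and -0.044, and the points of both levels of *Ifit1* overlap on the vertical axis in all 3 panels.

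The paralogs of *Ifit1* also had negative slopes, but neither was called over all genes. *Ifit1bl* (ENSRNOG00000036603), which encodes a protein closely related to IFIT1, held 14 to 53 adjusted counts, with a median of 31. Its slope on *Ifit1* was -0.067 (SE 0.017, adjusted p = 0.634 in limma), the fourth smallest p of 17249 genes. *Ifit2* (ENSRNOG00000036604), whose protein also binds RNA and restricts viruses, held 70 to 267 counts, with a median of 122. Its slope was -0.044 (SE 0.015, adjusted p = 1.00 in limma), and its p ranked 30. Unlike *Ifit1*, neither gene was listed at 0 in any rat. Permutation p-values of these slopes, not adjusted over genes, were 0.00021 and 0.00444. RSEM divides reads that match several transcripts, and *Ifit1* and *Ifit1bl* are close paralogs, so how far reads were divided between them is uncertain. Strandedness of the libraries is not given in the sources used here, so reads from overlapping genes cannot be assigned with certainty.

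Within batches, the slope of *Ifit1bl* was -0.074, -0.031, -0.12 and -0.040 for batches 2, 3, 4 and 6, in that order, with unadjusted limma p-values of 0.0408, 0.38, 0.000792 and 0.273. For *Ifit2* it was -0.091, -0.071, -0.00024 and -0.051 in the same batches, with unadjusted limma p-values of 0.0516, 0.0016, 0.994 and 0.0483. For each gene 2 of the 4 batches thus had an unadjusted p under 0.05, and none passed adjustment over all genes within the batch. Slopes were thus below 0 in 4 of 4 batches for each gene, although that of *Ifit2* in batch 4 was far smaller than its SE of 0.030. Differences between batches did not pass the interaction test for *Ifit1bl* (F = 1.79, unadjusted limma p = 0.156) or *Ifit2* (F = 1.81, unadjusted limma p = 0.152). Among the upper 41 rats alone, *Ifit1bl* had a slope of -0.087 (SE 0.14) and *Ifit2* one of 0.046 (SE 0.12).

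**Figure D3:**
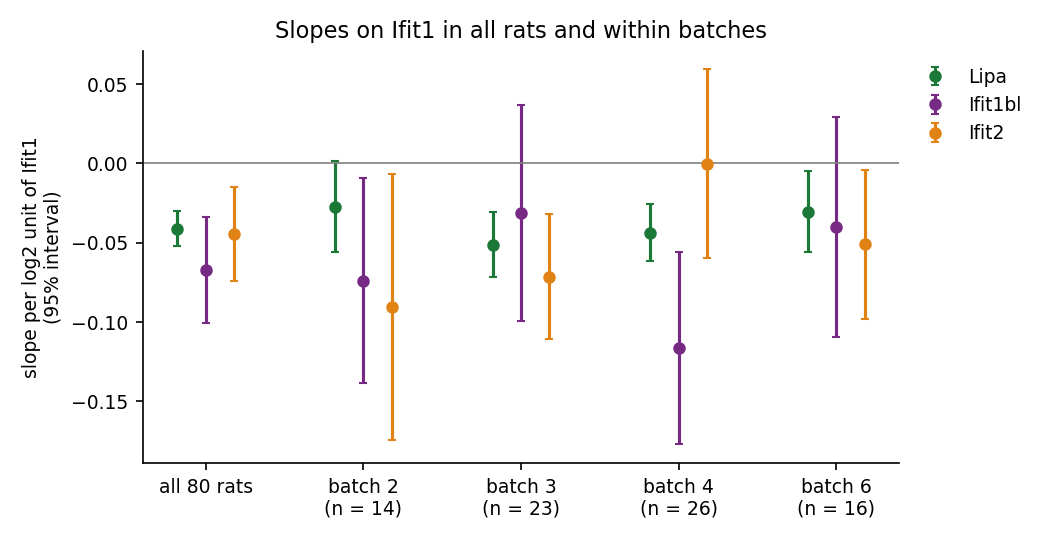
Slopes of *Lipa*, *Ifit1bl* and *Ifit2* on *Ifit1*, per log2 unit, in all 80 rats and within each batch of more than 1 rat, with 95% intervals from the standard errors. All 15 points lie below 0. Within batches, the interval of *Lipa* is clear of 0 in batches 3, 4 and 6. That of *Ifit1bl* is clear of 0 in batches 2 and 4, and that of *Ifit2* in batches 2, 3 and 6. The intervals assume a normal distribution, so that of *Ifit2* in batch 2 excludes 0 although its unadjusted limma p was 0.0516. The batches hold rats of the fit of all 80, so the points are not independent.

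Genes further along the chromosome were read against the shares over all genes. The 10 nearest genes with a name on each side of *Ifit1* were taken, and apart from *Lipa*, *Ifit1bl* and *Ifit2* they lay 30 to 79 genes away. Of these 17 genes, 10 had a positive and 7 a negative slope, none was called, and 1 had an unadjusted p under 0.05 (limma). Over all genes 0.00580% were called and 2.82% had such a p, so these counts lie near the background and do not set the 17 genes apart. The gene with the small p was *Fgfbp3*, which encodes a carrier of fibroblast growth factors, with a slope of 0.019 (SE 0.0075, adjusted p = 1.00 in limma). Before *Ifit1*, the genes *Rln1*, *Ric1*, *Ermp1*, *Gldc*, *Cstf2t*, *Asah2* and *Papss2* had slopes from -0.0083 (*Asah2*) to 0.0077 (*Papss2*). After it, *Hectd2*, *Ppp1r3c*, *Cpeb3*, *Marchf5*, *Exoc6* and *Myof* had slopes from -0.0095 (*Ppp1r3c*) to 0.0051 (*Myof*), while *Cyp26a1* (0.053), *Cep55* (-0.076) and *Ffar4* (0.047) had larger ones with wider intervals that include 0. Genes without a name, among them any that lie closer, could not be placed.

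**Figure D4:**
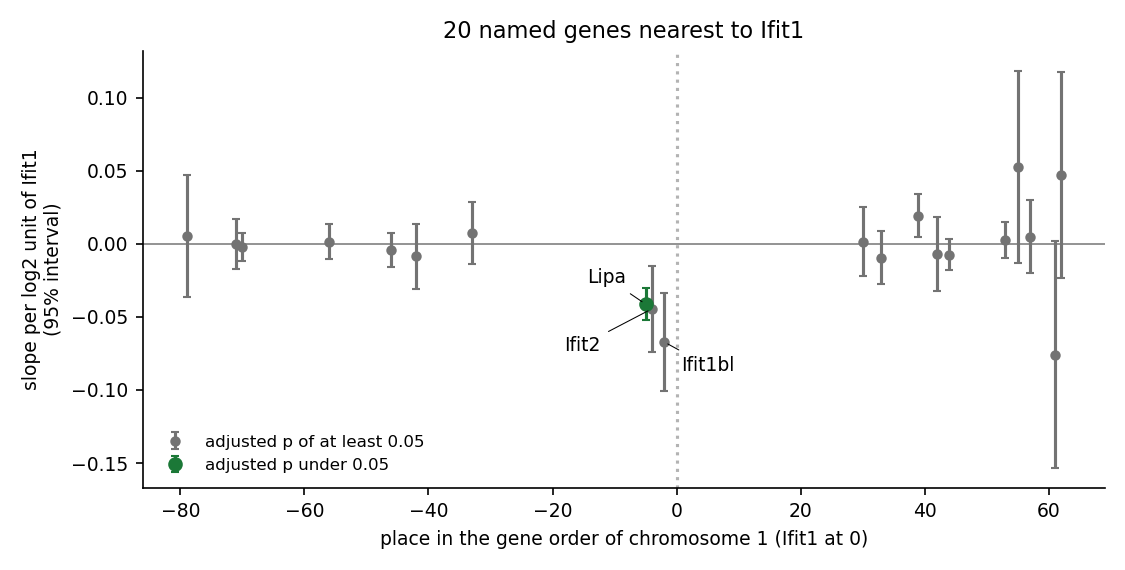
Slope on *Ifit1* per log2 unit, with 95% intervals, of the 20 nearest genes with a name, against their place in the gene order of chromosome 1 with *Ifit1* at 0. *Lipa* (green) is the called gene at -0.041, with *Ifit2* and *Ifit1bl* beside it, and the intervals are widest for genes of low level such as *Cep55*, *Cyp26a1* and *Ffar4*.

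Other interferon genes were compared with *Ifit1* in the same fit. Of the genes listed for the interferon response outside the IFIT family, 19 had a name paired with their identifier. None was called, and none had an unadjusted p under 0.05 (limma). With 0.00580% of all genes called and 2.82% under that p, these counts are at the background and do not separate the 19 genes from others. Their slopes ran from -0.037 to 0.039 with a median of 0.0017, beside a median of 1.2e-05 over all genes. Of these slopes 14 were positive and 5 negative, beside 8633 positive and 8616 negative over all genes. This lean towards positive slopes was not tested.

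Among effectors, 10 of 64 listed genes were found by name, with 8 positive and 2 negative slopes. Listed genes not found by name may still be among the genes measured. *Mx1*, a GTPase that blocks virus replication, had a slope of 0.0015 (95% interval -0.054 to 0.057). *Ifi27*, a strongly interferon-induced mitochondrial protein, had one of 0.039 (-0.029 to 0.11). *Herc6*, a ligase for the ubiquitin-like ISG15, had the smallest p of the effectors (unadjusted limma p = 0.177) and a slope of -0.019. The effectors *Isg20*, *Oasl*, *Ifitm1*, *Ifitm3*, *Xaf1*, *Trim21* and *Sp100* lay between -0.0085 and 0.030.

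Upstream of these genes, the receptor *Ifnlr1* for type III interferons was the 1 found by name of 15 ligands and receptors. Its slope was -0.037 (95% interval -0.13 to 0.059). Of 18 signal transduction genes, 3 were found by name. Slopes were 0.0017 for the kinase *Jak2*, 0.0017 for *Stat2* and -0.0050 for the transcription factor *Irf2*. *Stat2*, a subunit of the complex that activates *Ifit* genes, was estimated closely (95% interval -0.011 to 0.015). The RNA sensor *Ddx58* was the 1 found by name of 18 sensing genes, at 0.022. Antigen presentation had 4 found by name of 22, *Psmb9*, *Tap2*, *B2m* and *RT1-Db1*, with slopes from -0.0052 to 0.020. *Isg15*, *Mx2*, *Irf7*, *Irf9*, *Oas1a*, *Usp18*, *Rsad2*, *Bst2* and *Ifih1* had no name paired with an identifier and are not analysed here.

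Markers of cell types were read in the same way. Of 70 listed markers, 13 were found by name, and the others may still be among the genes measured. Of those 13, none was called and none had an unadjusted p under 0.05 (limma). These counts too are at the background of 0.00580% called and 2.82% under that p, so nothing particular to the markers is read from them. Markers of cortical neurons were present, with *Neurod6* of excitatory neurons at a mean log2 value of 11.08 and *Slc32a1*, the vesicular GABA transporter, at 10.25. Of the excitatory markers, *Slc17a6*, a vesicular glutamate transporter, had a slope of 0.0041 and *Neurod6* one of -0.0065. Of the inhibitory markers, *Slc32a1* had a slope of 0.0086 and *Vip* one of -0.00020. Microglia and macrophages, with 4 markers, had slopes from -0.0037 (*C1qc*) to 0.012 (*Itgam*), and *P2ry12* stood at 0.0017. The astrocyte marker *Aldh1l1* had a slope of 0.0015, *Vwf* of endothelium -0.0042, *Rgs5* of pericytes -0.014, *Dcn* of the meninges -0.00016 and *Hbb* of blood 0.0041. None of the listed markers of oligodendrocytes, their precursors, T cells or ependyma had a name paired with an identifier.

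**Figure D5:**
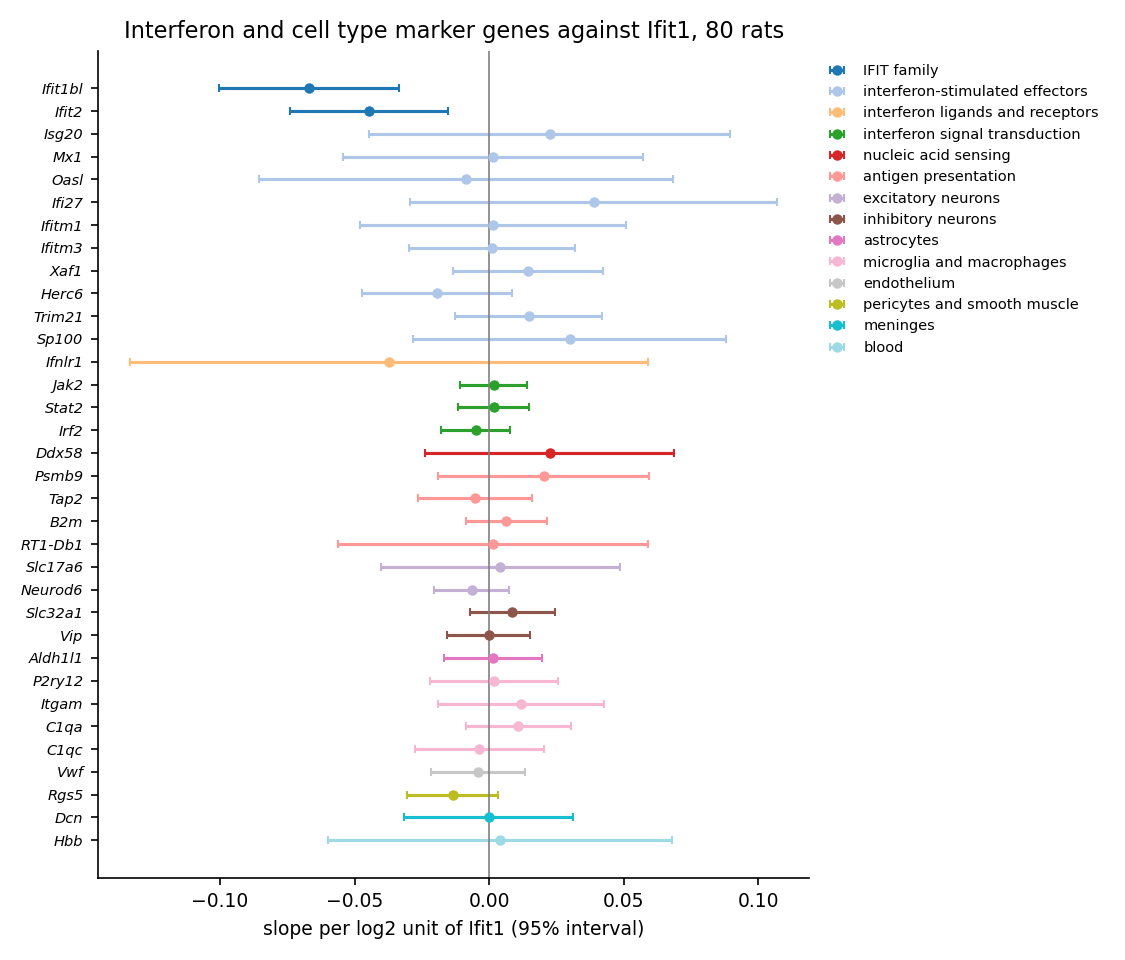
Slope on *Ifit1* per log2 unit, with 95% intervals, of the 2 paralogs, 19 other interferon genes and 13 cell type markers, coloured by list. The intervals of *Ifit1bl* and *Ifit2* lie below 0, and those of the other 32 genes include 0.

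Among the remaining genes with a name, none passed the threshold. The positive slopes with the smallest p were those of *Alg8*, a glucosyltransferase of N-glycan assembly, at 0.033 (SE 0.0091, adjusted p = 1.00 in limma), and *Oxld1*, at 0.043 (SE 0.013, adjusted p = 1.00 in limma). They were followed by *Ccdc159*, *Aldh1b1*, *Abca12*, *Hm13*, *Bub1*, *Dact1*, *Samm50*, *Chchd5*, *Lad1*, *Wnt7a*, *Fgfbp3*, *Mgarp* and *Taf6l*, with slopes from 0.012 (*Samm50*) to 0.11 (*Abca12* and *Lad1*). Negative slopes after *Lipa* and *Ifit1bl* were led by *Ptges*, the inducible prostaglandin E synthase, at -0.11 (SE 0.032, adjusted p = 1.00 in limma), and *Eva1a*, at -0.053 (SE 0.016, adjusted p = 1.00 in limma). *Tmcc1*, *Tyr*, *Ss18l1*, *Polr3c* and *Septin10* had slopes from -0.075 (*Tyr*) to -0.012 (*Polr3c*). Of the genes without a name, ENSRNOG00000012557 had the second smallest p of all, with a slope of 0.16 (SE 0.036, adjusted p = 0.203 in limma). The third smallest p was that of another gene without a name, with a slope of 0.15 (SE 0.037, adjusted p = 0.634 in limma), and the fifth that of ENSRNOG00000013605, with a slope of -0.15 (SE 0.037, adjusted p = 0.634 in limma). All 3 were low, with mean log2 values of 2.64, 1.01 and 1.22.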

How the data were processed

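RNA-Seq of the PL was analysed in 80 rats, with sex, rat batch and removal taken from the labels. The authors trimmed reads with cutadapt, aligned them to Ensembl rat transcripts and estimated gene counts with RSEM, adjusted libraries to a common upper quartile in DESeq2, filtered genes and samples, and deposited log2 values after adding a pseudocount of 1. The labels name build Rnor_6.0, and tool versions are not given in the sources used here. The filter kept genes by reads per library, so *Ifit1* passed through its upper rats. All values returned to whole numbers (within 0.1%) when the log2 was undone. Sums of adjusted counts, 16957388 to 20613398 per library, were set by the adjustment and do not give depth.

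All genes were fitted with limma 3.58.1 in R 4.3.3 (lmFit, eBayes with a variance trend, two-sided): sex with batch as a factor, batch with sex as covariate, and the slope of each gene on *Ifit1* with both. P-values were Benjamini-Hochberg adjusted over all genes of each fit and called under 0.05. Scripts were tested on simulated data. Permutation tests used 100000 resamples in Python 3.11.15. Gene names were paired with 3292 identifiers (19.1%) through supplementary tables of genes with an eQTL, used for names only, so the lists are incomplete and favour such genes. No genome of the files' build was used, and gene order came from RefSeq on GRCr8.

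Genes named are *Ifit1*, its family, the 10 nearest named genes on each side, and the 15 positive and 10 negative named slopes of smallest p. Also named are core interferon genes, called members of the interferon lists and the first marker of each list found by name. Of the listed genes, 2 are not reported here. Other list members, unnamed identifiers and examples were added after their values were seen. *Ifit1*, the lists and the tests were chosen with earlier results of these data known.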

Additional observations from a re-analysis of the deposited data

How the results depend on the processing

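With a normal mixture of 2 components in place of the widest gap, all 80 rats stood on the same side. After batch medians were subtracted, the widest gap (2.03 log2 units) put 70 rats above it, because a batch median can itself lie at either level or between them, and 51 rats kept their side. *Lipa* was the 1 gene called under 7 alternatives: inverse normal transformation, 20 expression components, a pseudocount of 10, genes with a mean log2 value of at least 5, no covariates, no variance trend, and leaving out 2 of the 35 rats tied at 0, the farthest from the median. Fewer rats gave 2 genes in batch 2 (ENSRNOG00000049895 and ENSRNOG00000050374, named after their values were seen), 0 in batches 3, 4 and 6, and 0 within the upper and the lower rats, with 923, 705, 623, 1113 and 330 genes at an unadjusted p under 0.05 in limma. The slope of *Ifit2* was 0.046 within the upper rats. The slope of *Mx1* turned to -0.011 without covariates, -0.0048 without the 2 farthest rats and -0.022 in batch 3, and that of *Stat2* to -0.0017 with 20 components, -0.011 in batch 4 and -0.010 in the upper rats. The sex difference of *Ifit1* turned to -0.25 without batch and to -2.18 (SE 3.74) with 20 components. The cause of these reversals was not tested, and none was called. Permutation p-values were 0.943 for sex and 0.381 for batch, and batch was called under none of its 5 alternatives. A filter on mean log2 values of at least 5 removes *Ifit1* (mean 2.73), so the sex difference has no value there. Permutation of the slopes was added after seeing the data. No paired analysis of the sexes was possible, because each library came from a separate rat and the labels give no pairing of rats.

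Precision is limited by *Ifit1* itself, whose upper level rests on a median of 39 adjusted counts, and by slopes whose median SE was 0.010. Relations within a level rest on few distinct values below the gap, where rats held 0 or 1 count.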
